A study of Arabidopsis thaliana with 4 samples.

Results

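The C and S1 group bZIP genes of Arabidopsis thaliana were examined for binding by KANADI1 (KAN1). They are 9 genes: bZIP9 (AT5G24800), bZIP10 (AT4G02640), bZIP25 (AT3G54620) and bZIP63 (AT5G28770) of the C group, and bZIP1 (AT5G49450), bZIP2 (AT2G18160), bZIP11 (AT4G34590), bZIP44 (AT1G75390) and bZIP53 (AT3G62420) of the S1 group. Every region of the deposited table that names one of them, as an overlapping gene or as the nearest gene on its left or right, was taken, which gave 29 regions of 22109 in the table. The table lists regions that had been called from ChIP against control reads, so the regions were chosen by the same read counts that are described here. Among the 29, 8 lay beside C group genes and 21 beside S1 group genes.

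KAN1 binding had been measured by chromatin immunoprecipitation and sequencing (ChIP-Seq) in Columbia-0 plants after 10 days in liquid culture and 45 min of dexamethasone, in 2 libraries of KAN1-FLAG chromatin and 2 control libraries. The KAN1-FLAG plants carry 35S:FLAG-GR-KAN1, in which the 35S promoter drives the FLAG-tagged fusion far beyond the tissues where KAN1 is normally active, and dexamethasone releases the fusion into the nucleus. The labels give the same dexamethasone treatment for the controls and call their antibody input, whereas the methods describe 1 control library from Col-0 plants without the transgene. The labels do not say whether the libraries came from separate cultures. In the 29 regions, control 2 had at most 5 reads and none at all in 15, so reads of both controls were summed. Each ChIP library was divided by this sum, which gives 2 ratios per region that share a denominator and are not corrected for depth. ChIP replicate 1 was the deeper library and had the higher ratio in 29 of 29 regions. The SD given below with each mean ratio therefore includes this difference in depth. Once both replicates were brought to the same total over all regions, replicate 2 was the higher in 16 of 29, with a median quotient of 1.00 and a range of 0.600 to 1.65.

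KAN1 is a GARP family transcription factor that promotes abaxial identity in lateral organs and acts largely as a repressor. The bZIP factors bind DNA as dimers through a basic region and a leucine zipper. C group members pair preferentially with S1 group members, and the pairs adjust amino acid and carbohydrate metabolism when sugar and energy run low. The kinase SnRK1 acts upstream of this network, and bZIP63 is one of its phosphorylation targets. The mRNAs of S1 genes carry an upstream open reading frame in their leader through which sucrose represses translation.

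The sequences that matter most are shown first. The KAN1 motif was searched on both strands as GAATA preceded by A, C or G and followed by A or T, and capitals mark the 7 bases of each match within 30 bases of the TAIR10.1 reference. Each stretch is written 5′ to 3′ on the strand that carries the match. The region 1423 bp upstream of bZIP63, the most enriched of the 29, held 4 matches, in the order chr5:10799380-10799409 (plus strand), chr5:10799451-10799480 (minus strand), chr5:10799652-10799681 (plus strand) and chr5:10799717-10799746 (plus strand).
bZIP63 site a: tctgcatcacaAGAATATataaataataaa
bZIP63 site b: aaatgcaaatgGGAATATtaaatggaccca
bZIP63 site c: cttttatcaagAGAATATctagtgagagag
bZIP63 site d: gtttgactttgAGAATATcagtagttcaac

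For comparison with the sites of bZIP63, the matches in the regions of bZIP53, bZIP10 and bZIP1 with a mean ratio of at least 3 are shown next, and 3 of the 4 at bZIP44, which differ in their last base, are printed with its values. The bZIP53 stretch is chr3:23093043-23093072 (plus strand), the bZIP10 stretches are chr4:1153859-1153888 and chr4:1153931-1153960 (both plus strand), and the bZIP1 stretches are chr5:20049685-20049714 (plus strand) and chr5:20049786-20049815 (minus strand). The match at bZIP53 lies in the palindrome GAATATTC, so it is read on both strands.
bZIP53 site a: tgttcacggatGGAATATtccaccaagatg
bZIP10 site a: aaactattcaaAGAATATtgtaaagaaata
bZIP10 site b: aataaaaaaagAGAATATacttgtgtgggt
bZIP1 site a: tgataactacgAGAATATactaattgtcgg
bZIP1 site b: cctatgtgtacAGAATATatatatatgatt

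The mean of both ratios was at least 3 in 7 of the 29 regions, against 18.8% of all 22103 called regions on the chromosomes. These 7 regions lay beside 5 of the 9 genes, bZIP63, bZIP1, bZIP53, bZIP44 and bZIP10. Among all 22970 genes named in the table, 25.4% had such a region. A gene with more regions has more chances to hold one, and region number was not taken into account. The ratio reached 3 in both replicates in 2 member regions, both upstream of bZIP63, against 7.37% of all called regions. With ChIP replicate 1 alone 13 of the 29 regions, beside 7 genes, had a ratio of at least 3, against 31.8% of all called regions. With ChIP replicate 2 alone they were 2 regions, beside 1 gene, and the count of regions is close to the 7.37% of all called regions at that setting. No share of all named genes was computed with 1 replicate alone, so these gene counts have no share to be set against. The median mean ratio of the 29 regions was 2.10, and that of all called regions 1.62. A further 9 regions had a mean ratio between 2 and 3, and 13 were under 2. The highest mean ratio below 3 was 2.88, at bZIP2, and the lowest above it 3.28, at bZIP10. The genes were chosen with results of these data known, so these shares are given as a description, with no test. With 2 replicates no single region was tested either. The 95% intervals given for the ratios are exact binomial (Clopper-Pearson) intervals and cover counting error only.

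**Figure D1:**
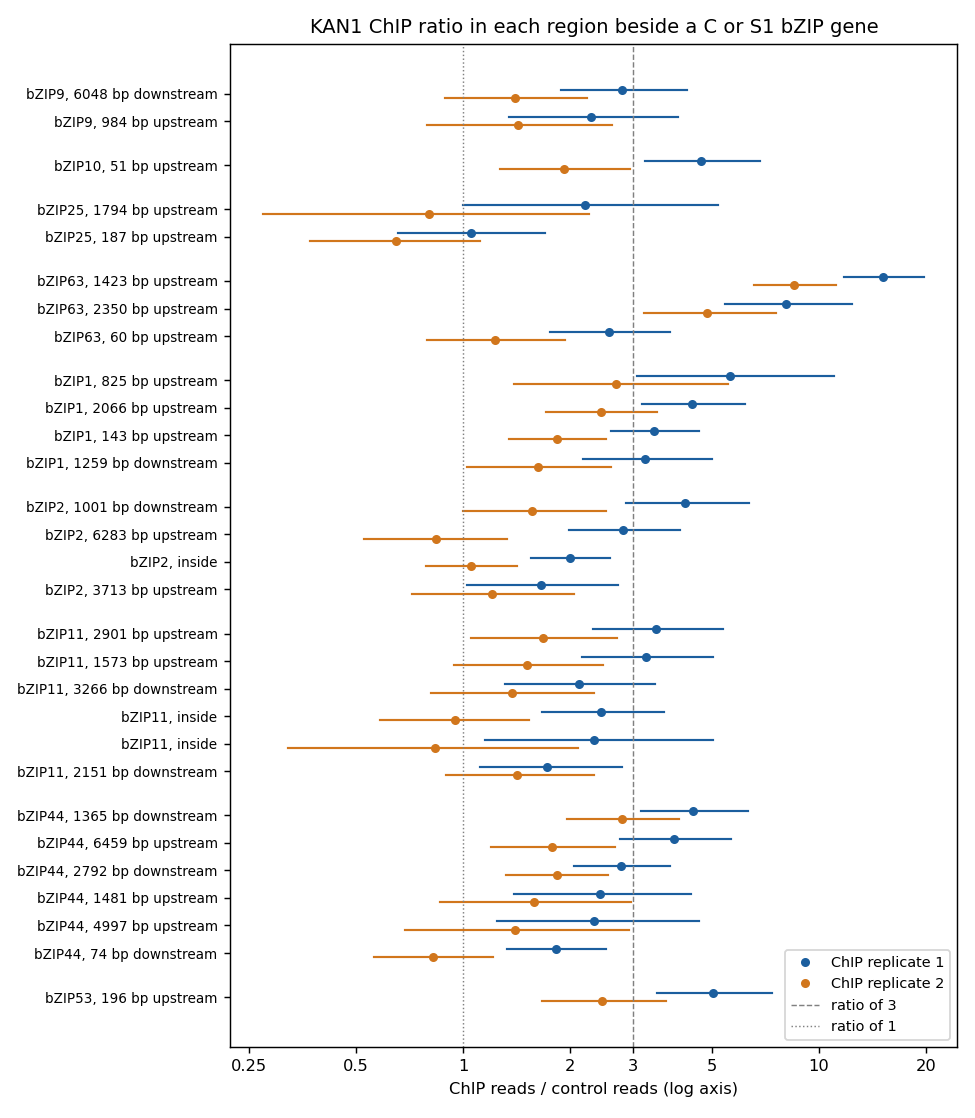
Ratio of ChIP reads to the summed control reads (log axis) in each of the 29 regions, with points for ChIP replicates 1 and 2 and bars for the 95% exact binomial interval. In both replicates the interval of the region 1423 bp upstream of bZIP63 lies above those of every other gene, and the 2 regions upstream of bZIP63 are those whose intervals clear a ratio of 3 in both.

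The largest signal among the 9 genes stood upstream of bZIP63, a C group gene whose product is activated by SnRK1 under starvation. In the reference the gene is chr5:10796457-10798305, read from the minus strand. The region chr5:10799366-10799925, 1423 bp upstream, held 985 and 552 reads of the first and second ChIP library, set against 63 and 2 of the first and second control. The ratio was 15.2 in replicate 1 (95% interval 11.8 to 19.8) and 8.49 in replicate 2 (6.56 to 11.2), with a mean of 11.8 ± 4.71 (SD, n = 2). With both replicates brought to the same total, the ratios were 11.3 and 12.8. By mean ratio it stood at place 10 of 22103 regions, and by reads at place 5 in each ChIP replicate. In reads not scaled for depth, both ChIP libraries were far above both controls here. The 65 control reads exceeded the median of 35 over the 29 regions, but this region spans 560 bp and the median member region 324 bp.

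A second region of bZIP63, chr5:10800435-10800711, lay 2350 bp upstream, with 226 and 136 ChIP reads against 28 control reads. Its ratio was 8.07 (5.44 to 12.4) and 4.86 (3.22 to 7.58), with a mean of 6.46 ± 2.27 (SD, n = 2), which placed it at 452 of 22103. It held no full motif but 2 matches to GAATA. It lies nearer to AT5G28773, annotated as a pseudogene in the reference, than to bZIP63. The third region, chr5:10798134-10798431, spans the start of the gene, 60 bp upstream of it in the deposited annotation and within the 5′ UTR of the reference model. Its reads were 100 and 48 against 39, and its mean ratio was 1.90 ± 0.943 (SD, n = 2). The intervals at the start, 1.75 to 3.81 in replicate 1 and 0.790 to 1.93 in replicate 2, lay below those of both upstream regions in the same replicate.

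The other C group genes had lower values. At bZIP10, which pairs with S1 partners in stress and developmental responses, 1 region was called, chr4:1153784-1154108, centred 51 bp upstream of the start in the deposited annotation and on the first bases of the 5′ UTR in the reference. It had 172 and 71 ChIP reads against 37 control reads, which gave ratios of 4.65 (3.24 to 6.82) and 1.92 (1.27 to 2.94) and a mean of 3.28 ± 1.93 (SD, n = 2). Replicate 1 cleared 3 and replicate 2 did not. Its second motif match starts 3 bp before the annotated start of the gene, which is at position 1153945 on the plus strand.

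At bZIP9, a C group gene known for expression in the phloem, 2 regions were called. The one 984 bp upstream had 48 and 30 ChIP reads against 21, with a mean ratio of 1.86 ± 0.606 (SD, n = 2). The one 6048 bp downstream had 98 and 49 against 35, with a mean of 2.10 ± 0.990 (SD, n = 2), and lies inside AT5G24810, so its assignment to bZIP9 rests on the nearest-gene rule alone. Neither reached 3 in any replicate.

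At bZIP25, which acts with bZIP10 and bZIP53 on seed storage genes, both regions were weak. The region 187 bp upstream had 39 and 24 ChIP reads against 37 control reads, with ratios of 1.05 (0.655 to 1.70) and 0.649 (0.371 to 1.11). The region 1794 bp upstream had 22 and 8 ChIP reads against 10 and lies inside AT3G54625 and AT3G54630. The region 187 bp upstream lies slightly nearer to AT3G54625 than to bZIP25. The mean ratio of the 187 bp region, 0.851 ± 0.287 (SD, n = 2), was the lowest of the 29, and this region held 2 full motif matches.

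**Figure D2:**
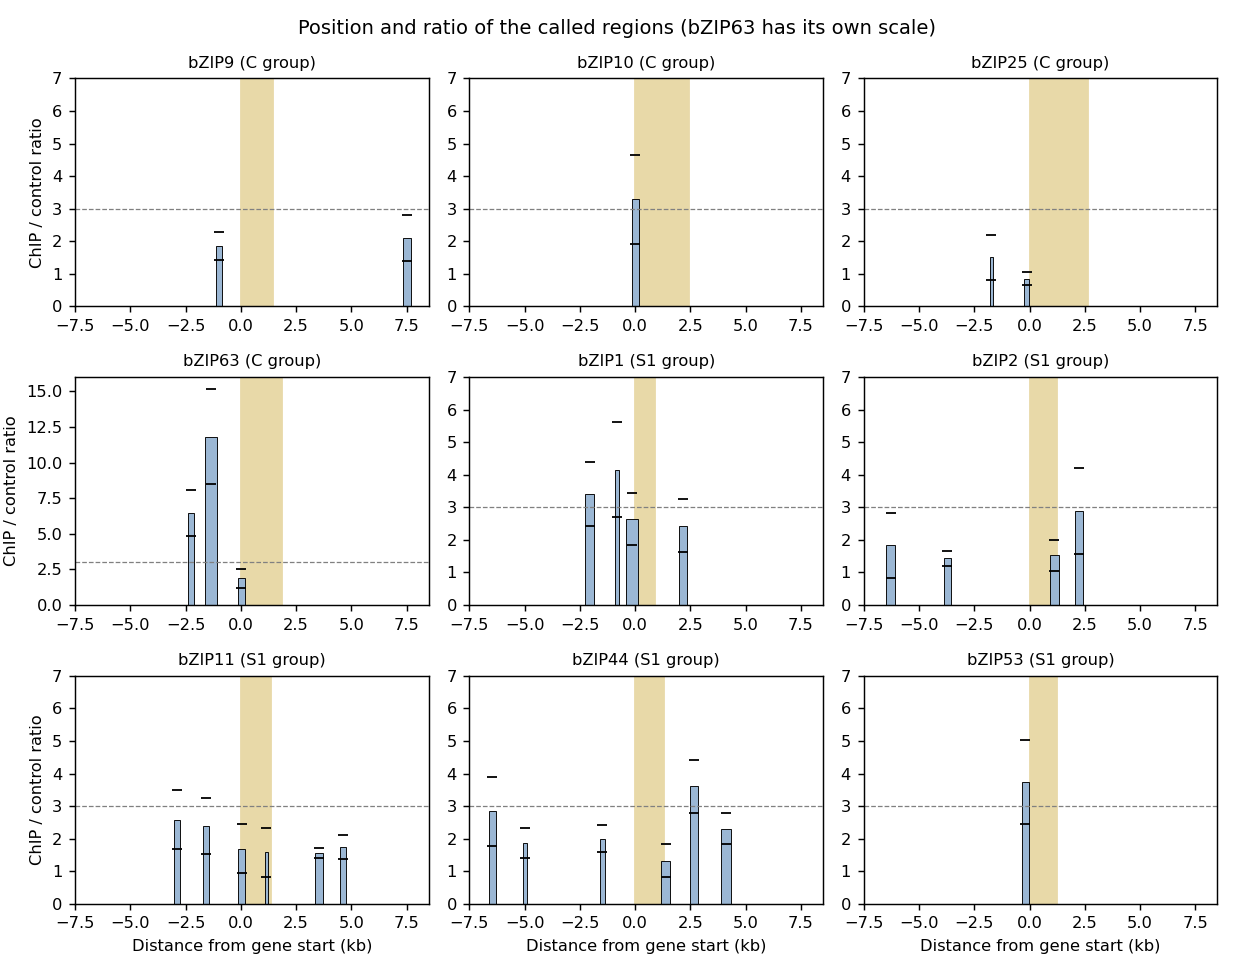
Mean ChIP/control ratio (bars from 0, ticks for each replicate) against the distance of the region's centre from the gene start in kb, for each of the 9 genes, with the gene body shaded. The bars of bZIP63, drawn on their own scale, reach 11.8 and 6.46 upstream of the gene, while those of bZIP11 stay under 3 on both sides and inside the gene.

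Among the S1 genes, bZIP1, bZIP53 and bZIP44 had regions with a mean ratio of at least 3. The product of bZIP1 is a sugar-responsive regulator that acts in nitrogen and low-energy responses. Its 4 regions spread from 2066 bp upstream to 1259 bp downstream. The region 825 bp upstream, chr5:20050914-20051094, had the highest mean ratio, 4.15 ± 2.07 (SD, n = 2), from 73 and 35 ChIP reads against 13 control reads. With so few control reads the intervals were wide, 3.09 to 11.05 in replicate 1 and 1.39 to 5.55 in replicate 2. The region 2066 bp upstream, chr5:20049573-20049953, had 202 and 112 ChIP reads against 46, ratios of 4.39 (3.17 to 6.19) and 2.43 (1.71 to 3.51) and a mean of 3.41 ± 1.38 (SD, n = 2). That region is closer to AT5G49440 on its left than to bZIP1.

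The region nearest to the start of bZIP1, chr5:20051425-20051947, had more reads than either, 224 and 119, but also 65 control reads, and its mean ratio was 2.64 ± 1.14 (SD, n = 2). The downstream region had 104 and 52 ChIP reads against 32 and a mean of 2.44 ± 1.15 (SD, n = 2), and is nearer to AT5G49460. The intervals of all 4 regions overlapped within each replicate, so their order is not separable beyond counting error. The region 2066 bp upstream held 2 motif matches, the downstream region 1, and the 2 regions nearest the start held none.

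The product of bZIP53 activates seed maturation genes and, with C group partners, proline dehydrogenase. Its single region, chr3:23092893-23093200, lay 196 bp upstream of the start in the deposited annotation. It had 186 and 91 ChIP reads against 37 in control 1 and 0 in control 2. The ratios were 5.03 (3.52 to 7.36) and 2.46 (1.66 to 3.71), with a mean of 3.74 ± 1.82 (SD, n = 2). The palindrome printed above lies 10 bp from the midpoint of the region.

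The gene bZIP44, linked to seed germination, had 6 regions, 3 upstream and 3 downstream. The highest mean ratio was downstream, in chr1:28294190-28294558, 1365 bp beyond the gene, with 190 and 120 ChIP reads against 43 control reads, ratios of 4.42 (3.16 to 6.30) and 2.79 (1.95 to 4.05) and a mean of 3.60 ± 1.15 (SD, n = 2). The region 2792 bp downstream, chr1:28295566-28296036, had 164 and 108 against 59 and a mean of 2.31 ± 0.671 (SD, n = 2). It lies nearer to AT1G75400 than to bZIP44. The region 74 bp beyond the gene had 115 and 52 against 63 and a mean of 1.33 ± 0.707 (SD, n = 2). Upstream, the mean ratio was 2.84 at 6459 bp, 1.87 at 4997 bp and 2.00 at 1481 bp, and both farther regions lie closer to AT1G75380. No region upstream of bZIP44 reached a mean ratio of 3, although replicate 1 alone gave 3.90 at 6459 bp.

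The regions 1365 and 2792 bp downstream of bZIP44 share sequence. A local alignment matched 222 of 249 ungapped positions (89.2%) over 320 columns, with a score of 106, whereas the next highest score among the 406 pairs of member regions was 38. Their centres are 1427 bp apart. The more enriched region held 4 motif matches and the other 3, and the alignment put 3 of these pairs in the same columns. The stretches are shown in pairs, first copy then second, from chr1:28294315-28294344 with chr1:28295646-28295675, chr1:28294365-28294394 with chr1:28295684-28295713, and chr1:28294457-28294486 with chr1:28295739-28295768, all on the plus strand.
bZIP44 pair a, first copy: actctgtgaaaGGAATAAacaaatggggca
bZIP44 pair a, second copy: actctgtgaaaGGAATAAaaagttgtactc
bZIP44 pair b, first copy: gacttagcgtaCGAATAAaactacacttca
bZIP44 pair b, second copy: gacttagcgtaAGAATAAaactcttcttct
bZIP44 pair c, first copy: tatactcgatcCGAATAAtacacgtacgaa
bZIP44 pair c, second copy: tacaatcgatcCGAATAAtccacgtacgaa

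How reads that fit both copies had been placed is not given in the sources used here, so the values of these 2 regions may not be independent. Their intervals overlapped in both replicates.

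The genes bZIP2 and bZIP11 had 4 and 6 regions, none with a mean ratio of 3. The product of bZIP11 regulates sugar and amino acid metabolism and is the textbook case of sucrose-repressed translation in this group. Its highest mean ratio was 2.58 ± 1.28 (SD, n = 2), 2901 bp upstream and inside the neighbouring gene AT4G34580, from 108 and 52 ChIP reads against 31. The region over its 5′ UTR, chr4:16521722-16522063, had 93 and 36 against 38 and a mean of 1.70 ± 1.06 (SD, n = 2). The region over its 3′ UTR had 28 and 10 against 12, and the mean ratio of the remaining 3 ranged from 1.57 to 2.39. In replicate 2 the ratios of the regions inside the gene were 0.947 and 0.833.

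The gene bZIP2, whose product is close to that of bZIP11, had its highest mean ratio 1001 bp downstream, 2.88 ± 1.86 (SD, n = 2), from estimated reads of 138.7 and 51.7 against 33.0. Control 2 gave 4.01 of these control reads, and with control 1 alone the mean was 3.28. The region over its 3′ UTR, chr2:7897909-7898334, had many reads in the control too, with 186 and 98 in the ChIP libraries and 93 in control 1, and its mean ratio was 1.53 ± 0.669 (SD, n = 2). The regions 3713 and 6283 bp upstream had mean ratios of 1.43 and 1.83.

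Ordered by their strongest region, the genes ran bZIP63, bZIP1, bZIP53, bZIP44, bZIP10, bZIP2, bZIP11, bZIP9 and bZIP25, with mean ratios that fell from 11.8 at the first to 2.10 at bZIP9 and lower still at bZIP25. The interval of bZIP63 was apart from that of bZIP1 in both replicates. Every later pair of neighbours in this order overlapped in both replicates, so their order is not separable beyond counting error. The median mean ratio was 2.00 for the 8 C group regions and 2.31 for the 21 S1 group regions, and this difference was not tested.

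**Figure D3:**
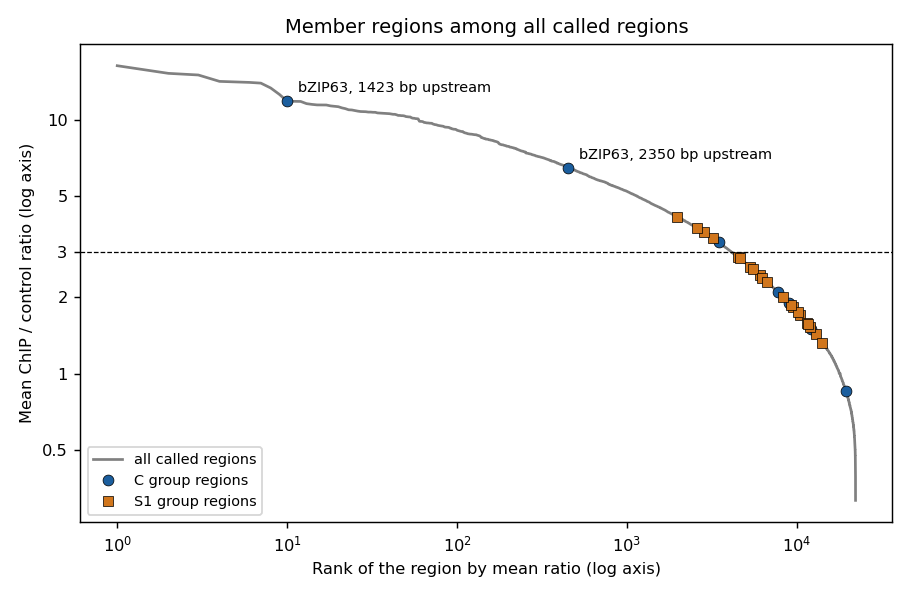
Mean ChIP/control ratio of all 22103 called regions on the chromosomes against their rank (both axes log), with the regions of C and S1 group genes marked. The 2 bZIP63 regions sit at places 10 and 452, and the other member regions follow from place 1974, a bZIP1 region.

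By position, 18 of the 29 regions lay upstream of the member gene, 8 downstream and 3 inside it. The member was the nearest named gene, or tied for it, in 16, and 23 regions overlapped the member or were centred within 3000 bp of it. Region number varied with the gene: bZIP11 and bZIP44 had 6 each, a number reached by 4.03% of the named genes, while bZIP10 and bZIP53 had 1 each and the median named gene 2. None of the 6 regions of bZIP11 had a mean ratio of 3, whereas the single regions of bZIP10 and bZIP53 did.

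At least 1 full motif was found in 17 of the 29 regions (58.6%), against 47.7% of all called regions and 69.8% of all regions with a mean ratio of at least 3. When every region was trimmed or extended to 300 bp around its midpoint, 17 of 29 member regions held a match, against 50.3% of all called regions. Among the 7 member regions with a mean ratio of at least 3, 5 held a match. Each of these held at least 2, counting the palindrome at bZIP53 on both strands, against 33.7% of all regions with such a ratio. Longer regions can hold more matches, and the median size was 324 bp in member regions and 250 bp in all called regions. Neither this count nor that of the palindrome below was repeated at 300 bp. Among the 22 regions under 3, 12 held a match. The 2 exceptions among the 7 were the bZIP63 region 2350 bp upstream and the bZIP1 region 825 bp upstream.

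The 35 matches in member regions lay at a median of 73 bp from the midpoint, and 26 within 100 bp. The form AGAATAT made up 14 of them (40.0%), against 26.0% of matches in all called regions, and included 3 of the 4 sites in the first bZIP63 region, both sites at bZIP10 and both in the bZIP1 region 2066 bp upstream. At bZIP44 the matches of the 2 downstream copies instead ended in an A, as the pairs printed above show. The palindrome GAATATTC, which counts as 2 matches, was found in 3 member regions, at bZIP53, bZIP9 and bZIP2, against 2.80% of all called regions. Their mean ratios were 3.74, 2.10 and 1.43, so the palindrome occurred in regions of high and of low ratio. The sequences that C and S1 bZIP proteins themselves bind were also searched. CACGTG was found in 1 of 29 member regions (7.83% of all called regions), and ACTCAT, on either strand, in 5 of 29 (13.7% of all).

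**Figure D4:**
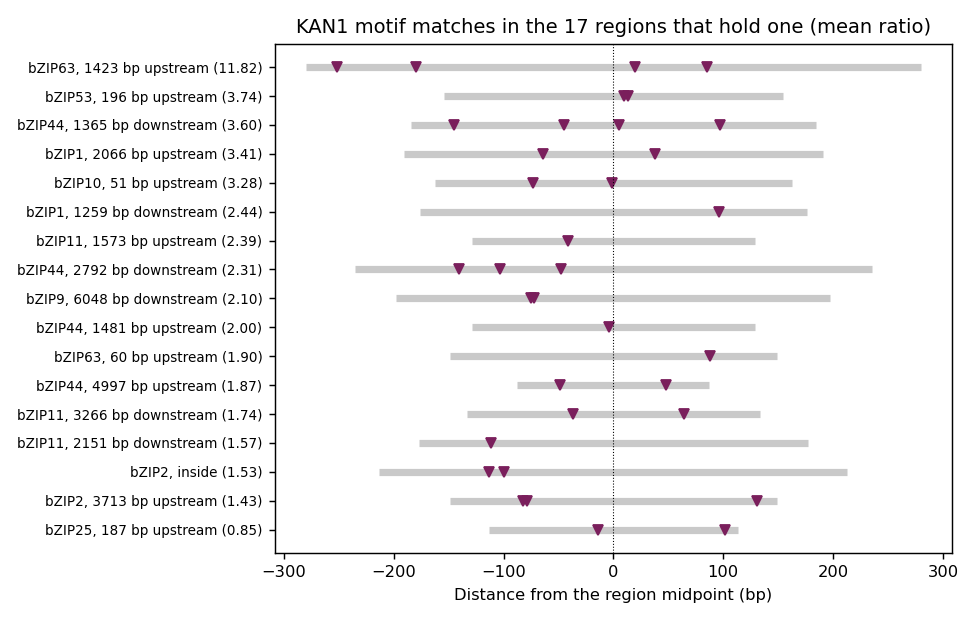
Positions of the motif matches (triangles) relative to the midpoint of each region in bp, for the 17 regions that hold one, ordered by mean ratio with the value in brackets; grey bars show the extent of the region. The first bZIP63 region holds 4 matches over its 560 bp, and the first bZIP44 downstream region also holds 4.

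Genes around these factors were read from lists for context. Of 6 SnRK1 subunit genes, 5 were named in the table and 1 had a region with a mean ratio of at least 3, against 25.4% of all named genes. It was KINB3 (AT2G28060), which encodes a regulatory subunit of the kinase, with ratios of 6.79 and 2.55 at 2306 bp downstream, and of 7.12 and 2.42 at 3199 bp. KIN10 and KIN11, the catalytic subunits, had at most 0.929 and 1.35.

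Of 14 genes of the low-energy response and of bZIP output, all were named in the table and 7 had such a region within 3000 bp, against 23.7% of the 21565 genes named within 3000 bp of a region or overlapping one. With ChIP replicate 2 alone, and at any distance, 3 of the 14 had a region with a ratio of at least 3. The share of all named genes was not computed at that setting, so whether 3 of 14 is high cannot be said. The region beside DIN10 (AT5G20250), a dark-inducible gene of raffinose metabolism, lay 1113 bp upstream and had 872 and 486 ChIP reads against 67 control reads, a mean ratio of 10.1 ± 4.07 (SD, n = 2). ProDH1 (AT3G30775), the proline dehydrogenase gene controlled by bZIP pairs, had 5.17 ± 3.21 (SD, n = 2) at 2589 bp upstream. TPS8 (AT1G70290), a class II trehalose phosphate synthase gene, had 4.52 ± 1.70 (SD, n = 2) at 1659 bp upstream.

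BCAT2 (AT1G10070), for branched-chain amino acid breakdown, had 4.34 ± 2.42 (SD, n = 2) at 697 bp upstream, and TPS5 (AT4G17770) 4.20 ± 2.07 (SD, n = 2) at 1944 bp upstream. ASN1 (AT3G47340), the asparagine synthetase gene often used as a readout of these bZIP factors, had at most 2.31. The strongest region per gene had a median of 3.35 in this list, 3.28 over the 9 C and S1 genes and 1.79 over all named genes. A gene with more regions has more chances of a high value, and region number was not taken into account. TPS8 and TPS11 had 9 regions each, while the median named gene had 2.

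Of 56 other bZIP genes, 52 were named in the table and 14 had a region with a mean ratio of at least 3, or 26.9% against 25.4% of all named genes, and the median strongest region was 2.12. The highest were TGA9 (AT1G08320), which acts in anther development, with 7.97 ± 3.08 (SD, n = 2) at 221 bp downstream, and ABF1 (AT1G49720), an abscisic acid response factor, with 5.65 ± 2.54 (SD, n = 2) at 1104 bp upstream. They were followed by bZIP34 with 5.60, bZIP24, a salt stress regulator, with 5.52 and bZIP29 with 5.28. None of them reached the value of bZIP63.

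**Figure D5:**
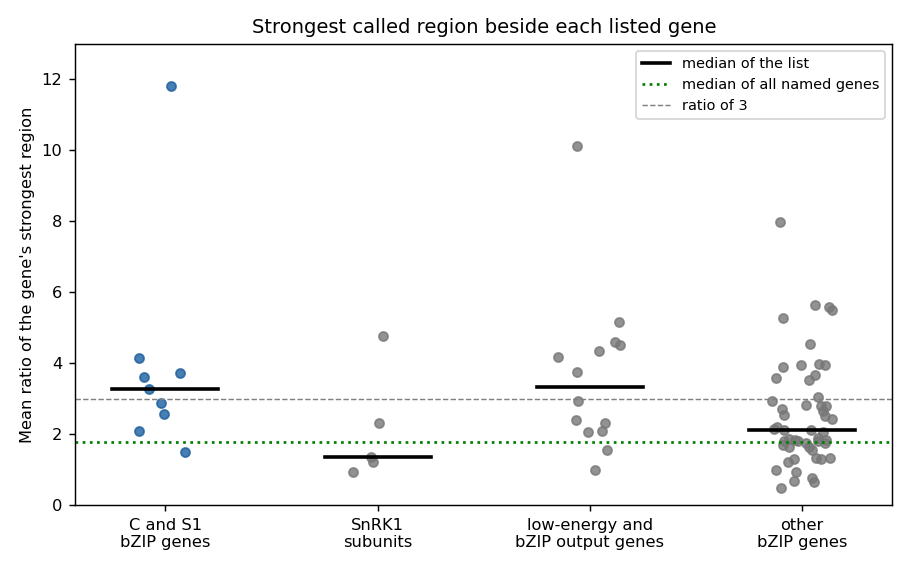
Mean ratio of the strongest called region beside each gene, for the 9 C and S1 genes, 5 SnRK1 subunit genes, 14 low-energy and bZIP output genes and 52 other bZIP genes, with black lines for list medians and a dotted line for the median of all named genes. The highest points are bZIP63 at 11.8 and DIN10 at 10.1, and the median of the other bZIP genes, 2.12, lies close to that of all named genes, 1.79.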

How the data were processed

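TAIR10 is the genome build per the labels. The authors lowered the number of duplicate reads by a heuristic before they called enriched regions, and deposited, for each region, the estimated count of reads of every library, not scaled between libraries. The aligner is not given in the sources used here. The table also holds false discovery rates and a rank over both replicates, the authors' own comparisons, which were not used. Distances to genes, in bp from the centre of a region, are as deposited. Where a region overlaps a gene, some right-hand fields are truncated in the table.

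Since control 2 was nearly empty, both controls were summed, a choice made in an earlier analysis after the table had been seen. From these counts, the ratio of ChIP to summed control reads was computed per ChIP replicate, with 95% exact binomial intervals on rounded counts. The threshold was a mean ratio of 3. Depth was known only within called regions: the median region had 59, 30, 27 and 0 reads in ChIP replicates 1 and 2 and controls 1 and 2. Start positions were read as 1-based. Gene coordinates, features and sequences come from the TAIR10.1 reference (RefSeq), whose sequence matched 275 of 275 TAIR10 transcripts over their first 20 bases. Its gene models differ from the deposited ones.

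Members and lists were chosen with earlier results of these data known. All member genes are named, beside up to 6 SnRK1 or low-energy genes with a region of at least 3 within 3000 bp and the 5 highest other bZIP genes; KIN10, KIN11 and ASN1 were added after their values were seen. The alignment scored 1 for a match, -1 for a mismatch and -2 for opening a gap and -1 for extending it. Python 3.11.15, numpy 2.4.6, scipy 1.17.1, pandas 2.3.3, matplotlib 3.10.9 and Biopython 1.88 were used. Motif search and intervals were tested on simulated data. Alternatives covered the control, a pseudocount of 10 reads, scaling, the replicates, the threshold, the distance, the gene models and the motif. All 4 sample columns were used.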

Additional observations from a re-analysis of the deposited data

How the results depend on the processing

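The bZIP63 region 1423 bp upstream stayed above 3 under every alternative run, at 8.49 without replicate 1, 15.2 without replicate 2, 10.4 with 10 reads added, and 145.8 with the same-numbered control, whose second library had 2 reads there. That control also took the strongest regions of bZIP2 and bZIP44 to 8.84 and 62.3. Apart from those of bZIP63, bZIP2 and bZIP44 with that control, no strongest region moved by more than 1 SD. The same-numbered control gave no value at the strongest regions of bZIP9, bZIP10, bZIP25, bZIP1, bZIP11 and bZIP53, where control 2 had no reads. Leaving out 1 ChIP replicate always moves a mean of 2 ratios by less than 1 SD, so that comparison says nothing about robustness. The counts depended on the settings, while scaling the replicates, control 1 alone, the 3000 bp limit, the reference gene models and the other motif definitions kept them within 1.5 times. Adding 10 reads to ChIP and control left 4 regions beside 3 genes, 3 of them with the motif, and took bZIP10 to 2.80 and the bZIP1 region 825 bp upstream to 2.78, while the share of all called regions fell to 12.8%. Requiring 3 in both replicates left 2 regions beside 1 gene, 1 with the motif, 0 SnRK1 genes, 3 low-energy genes and 6 other bZIP genes. At a threshold of 2 there were 16 member regions, 10 with the motif, against 38.0% of all called regions. The genes with such a region were 8 members, 2 SnRK1, 12 low-energy and 28 other bZIP genes. At 4 there were 3 member regions, 1 with the motif, against 9.90% of all called regions. The genes with such a region were 2 members, 1 SnRK1, 6 low-energy and 6 other bZIP genes. No share of all named genes was computed at these settings, so the gene counts have no share to be set against.

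Leaving out a ChIP replicate gave 2 (without replicate 1) to 13 member regions (without replicate 2), 1 to 7 genes, 1 to 7 regions with the motif, 0 to 1 SnRK1 genes, 3 to 10 low-energy genes and 6 to 23 other bZIP genes. The share of all called regions moved likewise, from 7.37% to 31.8%, and no share of all named genes was computed for the gene counts. With the same-numbered control, whose second library is nearly empty, 14 member regions passed, 9 with the motif. However, 99.2% of the 8174 regions with a value did too. The genes with such a region were 6 members, 1 SnRK1, 9 low-energy and 38 other bZIP genes, again with no share of all named genes. No paired analysis was possible because none of these results comes from a test; the same-numbered control was used for ratios only. Control reads of 10 to 93 per member region limit the precision of single ratios.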
